A study of Rattus norvegicus with 17 samples.

Results

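The subject is the effect of a low dose of FK506 on the messenger RNA of rat primary cortical cultures that carried an empty vector. The 3 libraries of vector cultures given 0.2 µM FK506 were set against the 3 of vector cultures given the solvent DMSO, which are 6 of the 17 libraries of the study, over all 11247 gene labels that the deposited table holds. The cultures came from rat cerebral cortex and are described in the labels as glutamatergic neurons with astrocytes. Other groups of the study were vector cultures at 2.0 µM FK506 (3 libraries) and cultures expressing the A53T variant of α-synuclein, in DMSO (2 libraries), at 0.2 µM (3 libraries) and at 2.0 µM (3 libraries). The A53T libraries at 2.0 µM enter only the shared estimate of spread behind every SE and p-value. The labels call 0.2 µM sub-saturating and 2.0 µM saturating. What all vector groups share is the empty vector itself; the vector type, the animals' age, the days in culture and the hours of exposure are not given in the sources used here.

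FK506 (tacrolimus) enters cells and binds FKBP12, a small prolyl isomerase encoded by Fkbp1a. The complex blocks calcineurin, a phosphatase that calcium and calmodulin switch on. In neurons calcineurin acts at synapses and on transcription: it dephosphorylates NFAT factors so that they enter the nucleus, and the CREB coactivators of the CRTC family so that they bind CREB at cyclic AMP response elements. In astrocytes the calcineurin and NFAT pathway is known for its part in reactive gene expression. Neuronal firing drives calcium entry, so genes such as Bdnf, Nptx2 and the Mir212 and Mir132 cluster, which respond to activity, are read as outputs of calcium signalling.

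Values are the authors' normalized gene counts. Fold changes are differences of log2(value + 1), which understates the change of genes with low values, and are given as log2 change ± SE from a limma fit, with p-values adjusted over all genes and called at 0.05. Normalized totals of all libraries ran from 15091428 to 18335540, and the raw depth is unknown. In vector cultures they were 16518831, 17020255 and 17085646 in DMSO and 16219031, 15144883 and 15254341 at 0.2 µM. The 3 vector libraries at 0.2 µM differed among themselves by 1.71 to 9.28 times Poisson sampling noise and those in DMSO by 2.30 to 3.16 times. The widest gap was between replicate 1 at 0.2 µM and its fellow replicates 2 and 3. On the leading axis of within-group variation, which held 54.3% of that variance over 14 libraries, replicate 1 scored -0.061 and replicates 2 and 3 scored 0.342 and 0.309, against -0.059 to 0.099 in DMSO (a score is the projection of a library's log2 difference from the DMSO mean on the axis, per root of the number of genes). The labels do not state whether replicate libraries derive from different cultures; p-values measure the spread between these samples only, which may be technical. In RNA from a mixed culture, fewer cells of a type and less RNA per cell cannot be told apart.

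At 0.2 µM FK506 12 of 21 late activity-dependent genes, 10 of 17 neuropeptide precursors and 9 of 18 astrocyte markers, led by Gfap, were lower. Early activity-dependent genes had 9 of 28 lower and 4 higher. Of 26 genes of the unfolded protein response and the integrated stress response 9 rose. All gene lists were chosen with earlier results of these data known, so their counts describe the lists and are no independent test. Of all 11247 genes, 866 (7.7%) were higher and 1190 (10.6%) lower than in DMSO, and 3832 had an unadjusted p under 0.05. For 38.7% of all genes the libraries of the groups did not overlap, as was the case for 2038 of the 2056 genes past the threshold. Most called changes were small: 1336 of them (65.0%) were under 0.5 on the log2 scale, with medians of 0.402 for higher and -0.406 for lower genes. Changes beyond 1 on that scale numbered 63 upward and 96 downward. The median over all genes was 0.00. Without replicate 1 at 0.2 µM the counts were 1169 higher and 1749 lower; leaving out another single library gave 400 to 560 higher and 580 to 833 lower. Where leaving out each of the 6 libraries in turn moved a list's leading count of 3 or more by over 1.5 times, its range over those 6 fits is given in square brackets. For single genes the library named below gave the highest adjusted p, and others could end the call too. Each of the 6 did so for Usp18 and Icam1. Any of 5 did so for Cytip, Fkbp1a, Fkbp2, Grin2d, Hspb8, Mdh2, Nes, Nrgn, Trib3 and Xrn1.

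**Figure D1:**
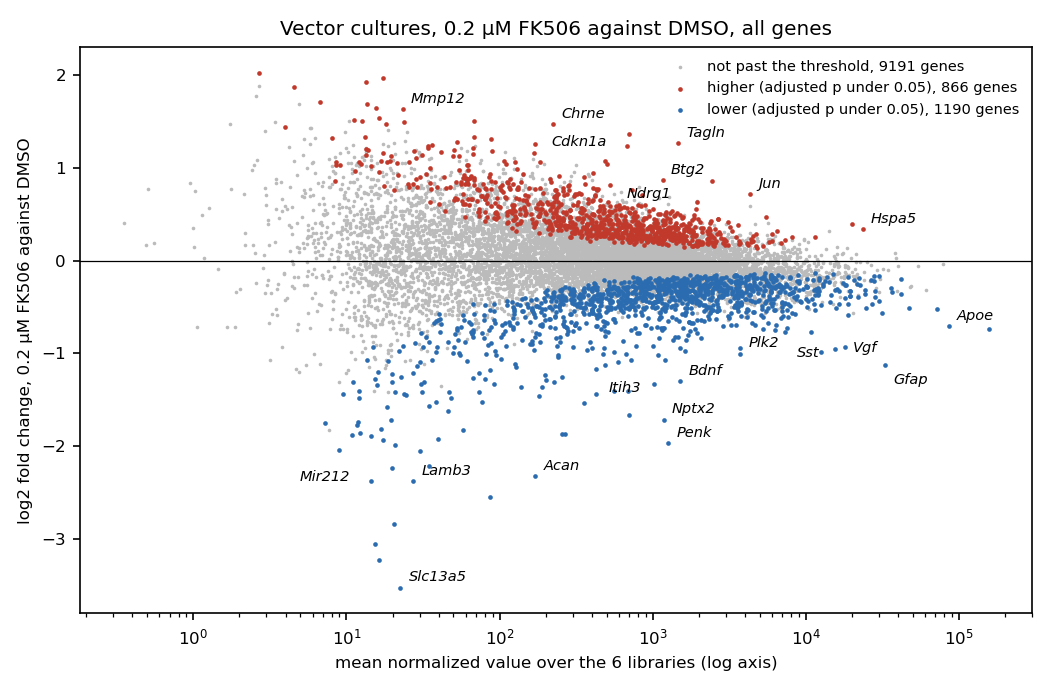
Log2 fold change at 0.2 µM FK506 against DMSO in vector cultures (vertical axis) by the mean normalized value over the 6 libraries (horizontal log axis), 1 point a gene, with 866 higher genes in red and 1190 lower genes in blue. Gfap and Apoe stand out among abundant genes that fell, and Jun, Btg2 and Hspa5 lie among those that rose.

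The largest falls were taken among named genes with a mean value of at least 20 and no overlap between groups. Slc13a5, a sodium-coupled citrate transporter, read 34.8, 50.8 and 39.7 in DMSO and 0.984, 4.76 and 3.33 at 0.2 µM, a log2 change of -3.53 ± 0.44 (adjusted p 0.00041). Slc22a3, an organic cation transporter that takes up monoamines, read 40.3, 32.5 and 37.5 in DMSO and 3.96, 3.80 and 5.08 at 0.2 µM (-2.84 ± 0.58). The treated means were 7.24% and 11.6% of the DMSO means. Acan, the aggrecan core protein of perineuronal nets, went from 313, 293 and 248 to 45.6, 66.2 and 58.0, or 19.9% of the DMSO mean (-2.32 ± 0.21, adjusted p 5.6e-05). Lamb3, a laminin chain, read 45.8, 46.8 and 46.7 in DMSO and 8.92, 5.72 and 10.3 at 0.2 µM, and Pla2g5, a secreted phospholipase, read 68.8, 48.8 and 54.8 in DMSO and 10.9, 11.5 and 12.1 at 0.2 µM. Pstpip1, Aspg, Cytip and Trim54, with log2 changes of -2.55, -2.06, -1.99 and -1.93, completed the falls of that rule outside the neuropeptides. That the groups did not overlap in any of them follows from the rule. Leaving out a single library ended the call for Cytip (adjusted p up to 0.087, without DMSO replicate 2).

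Among the largest rises were genes of varied function. Mmp12, a macrophage elastase, read 15.6, 10.2 and 7.19 in DMSO and 35.7, 25.9 and 45.1 at 0.2 µM (1.63 ± 0.29, adjusted p 0.0028). Chrne, a subunit of the muscle acetylcholine receptor, rose from 108, 117 and 129 to 368, 273 and 351 (1.47 ± 0.13, adjusted p 3.7e-05). Tagln, an actin-binding protein of smooth muscle, rose from 827, 769.6 and 958 to 2331, 1607 and 2262 (1.26 ± 0.17). The rises were taken by the same rule as the falls, so every treated library of these genes lay above every DMSO library. Cyr61, a secreted matricellular protein, rose by 1.36, Cyp27b1, which makes active vitamin D, by 1.23, and Tert, the reverse transcriptase of telomerase, by 1.24. The pseudogene label Aoc2-ps1 rose by 1.28, and Dab2, Zbtb40, Nfya, Klhl14 and Arrdc3 rose by 1.5, 1.5, 1.33, 1.31 and 1.25. For Zbtb40, Nfya and Arrdc3 replicate 1 at 0.2 µM was nearer to DMSO than replicates 2 and 3: Zbtb40 read 62.5, 138 and 105 there against 34.3, 37.7 and 29.2 in DMSO. With 1 library left out the call was lost for Aoc2-ps1 (adjusted p up to 0.062, without DMSO replicate 2), Arrdc3 (adjusted p up to 0.17, without treated replicate 2), Dab2 (adjusted p up to 0.094, without treated replicate 3) and Nfya (adjusted p up to 0.1, without DMSO replicate 2).

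Of 14 measured genes for calcineurin subunits and regulators, 3 were lower and 0 higher, beside 10.6% and 7.7% of all genes. Their median was -0.10. Rcan2, a regulator that binds and inhibits calcineurin, fell furthest, from 2739.9, 2862 and 2709 to 1913, 1771 and 1817 (-0.60 ± 0.05, adjusted p 6.0e-05). Rcan1, the family member whose shorter form is a classical NFAT target, fell from 1767, 1971 and 1879.9 to 1654, 1566 and 1568 (-0.23 ± 0.06, adjusted p 0.028). The catalytic subunits did not pass: Ppp3ca read 2533, 2441 and 2339 in DMSO and 2069, 2779.96 and 2636 at 0.2 µM (0.02 ± 0.16, adjusted p 0.93), with overlapping groups. Ppp3cb, Ppp3cc and the regulatory subunit Ppp3r1 had changes of 0.10, 0.05 and -0.12. The call did not hold without 1 library for Rcan1 (adjusted p up to 0.11, without DMSO replicate 2).

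Among FK506-binding proteins 3 of 13 measured were lower [0 to 6], beside 10.6% of all genes. None was higher, and the median was -0.11. Fkbp1a, which encodes FKBP12, was their most abundant member and read 13328, 14797 and 14264 in DMSO and 13014, 10988 and 11023 at 0.2 µM (-0.28 ± 0.09, adjusted p 0.049), a value just inside the threshold. Fkbp2 and Fkbp3 fell by 0.66 and 0.28 on the log2 scale. Fkbp5, the co-chaperone that glucocorticoids induce, read 860.4, 881 and 879 in DMSO and 937, 945 and 924 at 0.2 µM and did not pass (0.10 ± 0.06). Among 4 measured NFAT factors Nfatc3 rose, from 106, 97.9 and 92.9 to 156, 148 and 138 (0.57 ± 0.11, adjusted p 0.0042), and Nfatc1, Nfatc2 and Nfat5 did not pass at 0.36, -0.27 and 0.01. In the CREB family 1 of 12 passed, a rise, beside 7.7% of all genes that were higher. It was Creb1, which read 14.5, 10.2 and 9.51 in DMSO and 16.9, 31.7 and 27.6 at 0.2 µM (1.06 ± 0.26). None of 18 genes for calcium release, entry or pumps passed by limma (4 at an unadjusted p under 0.05). Of these 5 had no overlap, as did 38.7% of all genes. Without 1 of the libraries the call ended for Creb1 (adjusted p up to 0.067, without treated replicate 2), Fkbp1a (adjusted p up to 0.17, without treated replicate 3), Fkbp2 (adjusted p up to 0.14, without treated replicate 3) and Fkbp3 (adjusted p up to 0.14, without treated replicate 2).

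Activity-dependent genes of the late, secreted kind were mostly lower: 12 of 21 measured members were lower and 1 higher, with a median of -0.50. Bdnf, the neurotrophin, fell from 2166, 2199.5 and 2092 to 921, 809 and 898, 40.7% of the DMSO mean (-1.30 ± 0.12, adjusted p 6.9e-05). Nptx2, a secreted pentraxin that clusters AMPA receptors, fell from 1831, 1876 and 1719 to 486, 594 and 576 (-1.71 ± 0.19, adjusted p 0.00016). Treated libraries of both genes lay well apart from all DMSO libraries. Vgf, a precursor of secreted peptides and the most abundant of the list, fell from 22384, 23325 and 25364 to 13004, 11974 and 12142 (-0.94 ± 0.10, adjusted p 0.00019). Scg2, a granin of dense-core vesicles, fell from 12178, 11468 and 11873 to 8150.1, 8451 and 8542 (-0.50 ± 0.06), and Rgs4, a brake on G-protein signalling, from 2713, 2665 and 2713 to 1880.3, 1938 and 1919 (-0.50 ± 0.06).

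The Mir212 and Mir132 labels fell as well. They stand for neighbouring miRNA genes whose primary transcript is a known CREB target; in libraries made from polyadenylated RNA their values count transcripts over these loci and not mature miRNA. The 3′ arms of both share 1 seed, shown here because the pair is a textbook output of CREB (RefSeq, GRCr8; seed bases 2 to 8 in capitals).
rno-miR-212-3p: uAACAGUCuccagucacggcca
rno-miR-132-3p: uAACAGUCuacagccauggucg
rno-miR-212-5p: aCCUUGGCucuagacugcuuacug
Mir212 read 26.2, 27.5 and 20.6 in DMSO and 4.95, 2.84 and 4.20 at 0.2 µM (-2.38 ± 0.32, adjusted p 0.00064). Mir132, named after its values were seen, read 31.8, 37.7 and 25.3 in DMSO and 11.9, 0.912 and 12.1 at 0.2 µM (-2.23 ± 0.60, adjusted p 0.023), with replicate 2 lowest. Of 26 labels of miRNA genes in the table, these 2 passed the threshold, beside 10.6% of all genes that were lower. Leaving out a single library ended the call for Mir132 (adjusted p up to 0.083, without DMSO replicate 2).

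Of neuropeptide precursors 10 of 17 measured were lower, 0 were higher, and the median was -0.92. Penk, the enkephalin precursor, fell from 1857, 2054 and 2125 to 592, 497 and 458, 25.6% of the DMSO mean (-1.97 ± 0.17, adjusted p 3.7e-05). Sst, somatostatin, was the most abundant, at 18916, 19282 and 23034 in DMSO and 12121, 10252 and 9323 at 0.2 µM (-0.95 ± 0.16, adjusted p 0.0019). Summed over the list, the treated libraries held 65.8%, 53.1% and 50.8% of the DMSO mean, against 91.6% to 109% in DMSO. GABAergic neuron markers, of which Sst and Vip are also members, summed to 65.8%, 66.5% and 61.8% of the DMSO mean in the same libraries. Sst is the most abundant member of both lists, so the sums are not independent. With Sst, the GABAergic sums were 43274, 43796 and 46610 in DMSO and 29341, 29642 and 27555 at 0.2 µM. The part of GABAergic markers in the fall of neuropeptides was not tested. Pnoc, the nociceptin precursor, read 379, 358 and 468 in DMSO and 128, 108 and 91.9 at 0.2 µM, and Crhbp, which binds corticotropin-releasing hormone, 409.6, 412 and 432 in DMSO and 93.3, 132 and 121 at 0.2 µM, with log2 changes of -1.87 and -1.87. Vip and Tac1, the precursors of vasoactive intestinal peptide and substance P, fell by 1.41 and 0.92 on the log2 scale.

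**Figure D2:**
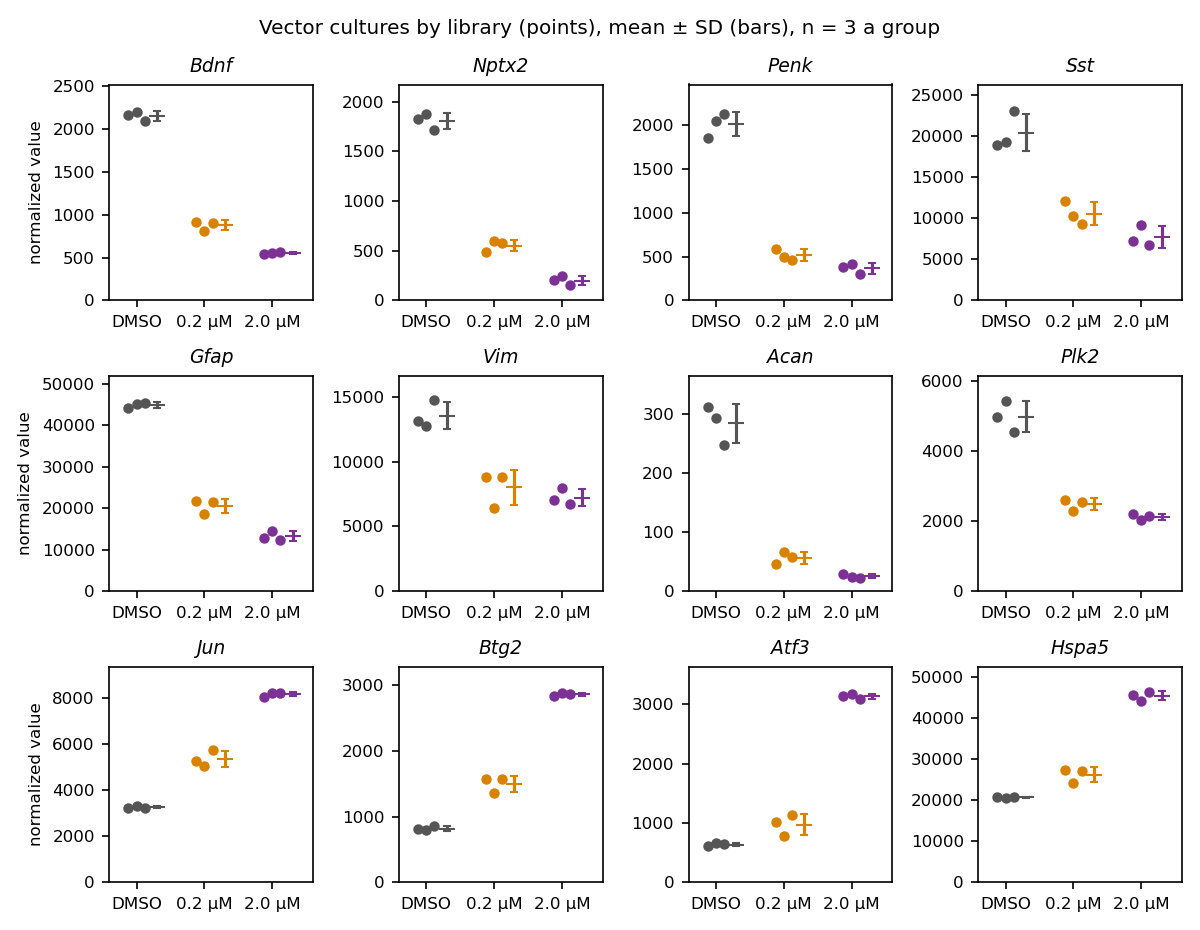
Normalized values of 12 genes in each vector library (points; mean ± SD as bars, n = 3) in DMSO, at 0.2 µM and at 2.0 µM FK506, each axis starting at 0. Bdnf, Nptx2, Penk, Sst, Gfap, Vim, Acan and Plk2 are lower at 0.2 µM, and Jun, Btg2, Atf3 and Hspa5 higher. No treated library at 0.2 µM overlaps the DMSO libraries in any panel. That was so for 2038 of the 2056 genes past the threshold, from which the panels were chosen, and for 38.7% of all genes.

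Promoters were searched for the cyclic AMP response element TGACGTCA, which reads the same on both strands, in 250 bases before to 50 after the annotated start, for the 8704 measured genes with 1 such start in RefSeq (GRCr8). The element stood in 3.39% of these promoters, in 4.5% of the 888 that belong to lower genes and in 2.78% of the 683 of higher genes; over all 33469 promoters of the table it was 1.83%. Stretches around the element, in capitals, are shown for 7 genes past the threshold that are described here and for Fkbpl and Jund, which did not pass. Ldha, Mdh2, Tubb2a and Vamp1, which were lower, and Cltb, Flt1 and Hsp90ab1, which did not pass, also held it and are not shown. Genes were named partly for their change, so the directions among them say nothing about the element. With 1 library left out the call was lost for Mdh2 (adjusted p up to 0.12, without treated replicate 3).
Vgf: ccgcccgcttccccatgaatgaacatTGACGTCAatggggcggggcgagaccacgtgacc
Scg2: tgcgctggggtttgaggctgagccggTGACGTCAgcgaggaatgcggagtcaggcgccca
Sst: ggggcgcctccttggcTGACGTCAgagaga
Rcan1: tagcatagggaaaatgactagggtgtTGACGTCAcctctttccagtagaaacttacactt
Plk2: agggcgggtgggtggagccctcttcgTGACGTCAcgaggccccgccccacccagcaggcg
Lamb3: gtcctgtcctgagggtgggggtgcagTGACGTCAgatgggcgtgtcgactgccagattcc
Btg2: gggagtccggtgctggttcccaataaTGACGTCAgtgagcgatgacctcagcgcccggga
Fkbpl: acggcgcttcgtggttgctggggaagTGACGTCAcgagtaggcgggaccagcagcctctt
Jund: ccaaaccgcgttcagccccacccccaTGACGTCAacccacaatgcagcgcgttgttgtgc
Its first base lay at position -90 from the start in Vgf, -123 in Scg2, -207 in Rcan1, -66 in Plk2, -44 in Lamb3, -201 in Btg2, -80 in Fkbpl and -221 in Jund; in Sst it began at base 3 of the annotated transcript. Vgf, Scg2, Sst, Rcan1, Plk2 and Lamb3 fell and Btg2 rose. The AP-1 motif TGANTCA, searched on both strands, stood in 4.65% of measured promoters, 6.31% of those of lower and 3.66% of those of higher genes. The NFAT core GGAAAA, also on both strands, stood in 19.98%, 17% and 19.91%. In all, 9 motifs were searched. The Egr motif GCGNGGGCG stood in 10.2% of measured promoters, 12.6% of those of lower and 10.5% of those of higher genes. For the Stat motif TTCNNNGAA the shares were 6.35%, 5.29% and 6.44%. The remaining motifs are not reported here. These are matches of letters, and no factor binding was measured.

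Early activity-dependent genes split in direction: 9 of 28 were lower [6 to 10] and 4 higher [2 to 4], with a median of -0.22. Fosb, an AP-1 subunit, fell from 982, 1192 and 811 to 364, 279 and 499 (-1.41 ± 0.22, adjusted p 0.0016). Gadd45b, a stress sensor that also responds to firing, fell from 974, 1147 and 1068 to 371, 257 and 389 (-1.67 ± 0.17, adjusted p 0.00012), the furthest of the list. Junb fell from 4656, 5237 and 5041 to 3498, 2908 and 3421 (-0.61 ± 0.11) and Ier5 by 0.74 on the log2 scale. Against these, Jun, the AP-1 subunit that stress kinases activate, rose from 3251, 3307 and 3230.4 to 5279, 5052 and 5731 (0.71 ± 0.05, adjusted p 1.8e-05). Btg2, an antiproliferative gene that p53 also induces, rose from 813, 791 and 857 to 1571, 1361 and 1577 (0.87 ± 0.07, adjusted p 2.4e-05). Both stood above every DMSO library in all 3 treated libraries, and 2038 of the 2056 genes past the threshold likewise had no overlap.

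Among targets of p53 and apoptosis genes 8 of 24 were higher [5 to 8] and 2 lower, beside 7.7% and 10.6% of all genes, with a median of 0.20. Cdkn1a, the cell cycle inhibitor p21, rose from 420.4, 374 and 416 to 1045, 938 and 871, 236% of the DMSO mean (1.23 ± 0.13, adjusted p 0.00015). Hrk, a BH3-only killer protein of neurons, rose from 905, 911 and 896 to 1239, 1324 and 1268 (0.50 ± 0.05, adjusted p 0.00015). Bbc3, which encodes PUMA, rose by 0.56 and Ccng1, a cyclin induced by p53, by 0.28. Plk2, a kinase of activated synapses that is also a p53 target, went the other way, from 4964, 5421 and 4541 to 2599.6, 2288 and 2556 (-1.0 ± 0.08, adjusted p 3.6e-05). Plk2 was the most abundant member of the list.

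In the list of the unfolded protein response and the integrated stress response 9 of 26 members were higher [5 to 10], with 0 lower and a median of 0.22; after quantile normalization 13 were higher. Hspa5, the chaperone BiP of the endoplasmic reticulum, rose from 20828, 20554 and 20812 to 27374, 24206 and 27104 (0.34 ± 0.07, adjusted p 0.009). Eif2ak3, the stress kinase PERK, rose from 580.3, 533 and 511 to 876, 890.1 and 989.8 (0.76 ± 0.13, adjusted p 0.0021). Herpud1, of the degradation pathway of the endoplasmic reticulum, rose from 2228, 2170.04 and 2329 to 3308, 2931 and 2942 (0.45 ± 0.06). Atf3 rose from 613, 659 and 642 to 1020.00, 775 and 1133 (0.59 ± 0.11), Pdia4 by 0.36 and Trib3 by 0.38. Asns, which the same response induces under amino acid shortage, read 3373, 3421 and 3424 in DMSO and 3832, 3523 and 3589.7 at 0.2 µM and did not pass (0.10 ± 0.05). The call did not hold without 1 library for Trib3 (adjusted p up to 0.13, without treated replicate 3).

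Heat shock genes did not share a direction, with 2 of 18 higher and 4 lower [1 to 5], beside 7.7% and 10.6% of all genes. Hspa1b, a stress-induced Hsp70 with a near-identical neighbour, Hspa1a, so that its counting is uncertain, rose from 1281, 1282 and 1361 to 1777, 1619.9 and 1999 (0.45 ± 0.07). Hsf1, the master factor of the response, rose by 0.26. Hspb1, the small heat shock protein that also marks reactive astrocytes, fell from 248, 254 and 319 to 116, 80.6 and 124 (-1.36 ± 0.24, adjusted p 0.0029), and Hspb8 and Dnajb1 fell by 0.58 and 0.27 on the log2 scale. Interferon-stimulated and antigen presentation genes had 4 of 17 higher [2 to 3] and 0 lower, with a median of 0.26. Tap1, the peptide transporter of antigen presentation, rose from 332, 264 and 279.6 to 467, 444 and 475 (0.67 ± 0.11, adjusted p 0.0021), and Irf9, Stat2 and Usp18 by 0.42, 0.32 and 0.77. Without 1 of the libraries the call ended for Dnajb1 (adjusted p up to 0.061, without treated replicate 2), Hsf1 (adjusted p up to 0.087, without DMSO replicate 1), Hspb8 (adjusted p up to 0.08, without treated replicate 3), Stat2 (adjusted p up to 0.1, without DMSO replicate 2) and Usp18 (adjusted p up to 0.13, without DMSO replicate 1).

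Astrocyte markers had 9 of 18 lower and 0 higher, beside 10.6% and 7.7% of all genes, with a median of -0.28. The highest change in the list was 0.83 and did not pass. Gfap, the intermediate filament that defines astrocytes, read 44127, 45115 and 45477 in DMSO and 21672, 18576 and 21571 at 0.2 µM, 45.9% of the DMSO mean (-1.13 ± 0.08, adjusted p 1.8e-05). Slc25a18, a mitochondrial glutamate carrier, fell from 983, 985 and 986 to 529, 462 and 417 (-1.07 ± 0.11, adjusted p 0.00015). Mlc1, a membrane protein of astrocyte endfeet, fell from 10490.1, 10473 and 10663 to 7811, 7704 and 7830.1 (-0.44 ± 0.05), and S100b from 13911, 15041 and 14868 to 11909.7, 9772 and 9949 (-0.48 ± 0.09). The 9 markers that passed ranged from -1.13 for Gfap to -0.27 for Slc1a3, the glutamate transporter GLAST. Glul, glutamine synthetase, read 13871, 12586 and 13354 in DMSO and 10488, 13523 and 10933 at 0.2 µM and did not pass (-0.20 ± 0.10). Leaving out a single library ended the call for Slc1a3 (adjusted p up to 0.096, without DMSO replicate 2).

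Of reactive astrocyte genes 11 of 21 were lower and 1 higher, and their median was -0.66, beside 0.00 over all genes. Vim, vimentin, fell from 13126, 12744 and 14701 to 8774, 6433 and 8841 (-0.77 ± 0.12, adjusted p 0.0012). Timp1, an inhibitor of matrix metalloproteinases, fell from 962, 1035 and 1047 to 615, 418 and 595 (-0.92 ± 0.17), and Cp, the copper ferroxidase ceruloplasmin, from 1658, 1619.6 and 1616 to 772, 695 and 873 (-1.07 ± 0.11, adjusted p 0.00015). S1pr3, a sphingosine phosphate receptor, fell by 0.72 and Aspg, an asparaginase, by 2.06 on the log2 scale. Itih3, a hyaluronan-binding protein outside the list with the smallest p-value of all genes, fell from 1483, 1467 and 1442 to 603, 531 and 617 (-1.33 ± 0.09, adjusted p 1.8e-05). Apoe, the lipid carrier that astrocytes secrete, was 1 of the most abundant transcripts and fell from 96881, 103784 and 117240.00 to 75424, 61726 and 58423 (-0.71 ± 0.16, adjusted p 0.012). With 1 library left out the call was lost for Apoe (adjusted p up to 0.057, without treated replicate 3).

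Other genes known in glia passed as well. Hes1, a Notch effector, fell from 588, 677 and 636 to 371, 306 and 274 (-1.0 ± 0.11, adjusted p 0.00019). Id3 and Id2, inhibitors of bHLH factors that BMP signals induce, fell by 1.28 and 0.69 on the log2 scale, while Cyr61, in the same list of BMP and TGF-β targets, rose. Of that list, 5 of 14 were lower and 1 higher. Slco1c1, the thyroxine transporter, fell from 267, 301 and 269 to 119, 120.01 and 114 (-1.24 ± 0.15, adjusted p 0.0003), and Dio2, the deiodinase that activates thyroxine, rose from 22.2, 21.4 and 23.4 to 40.7, 44.1 and 45.8 (0.93 ± 0.20). Among metallothionein and metal genes 6 of 11 were lower [3 to 7] and 0 higher, with a median of -0.57: Mt2A fell from 14862, 17549.8 and 17479 to 10776, 6241 and 8813 (-0.98 ± 0.21) and Tf, transferrin, by 1.26 on the log2 scale. Metallothionein genes are alike in sequence, so the split of reads between them is uncertain. NF-κB targets had 4 of 14 lower [1 to 3] and 0 higher, led by Tnfaip2 (-1.11), and complement genes 3 of 10 lower, led in p by Serping1, the C1 inhibitor (-0.53). The call did not hold without 1 library for Tf (adjusted p up to 0.06, without treated replicate 2).

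**Figure D3:**
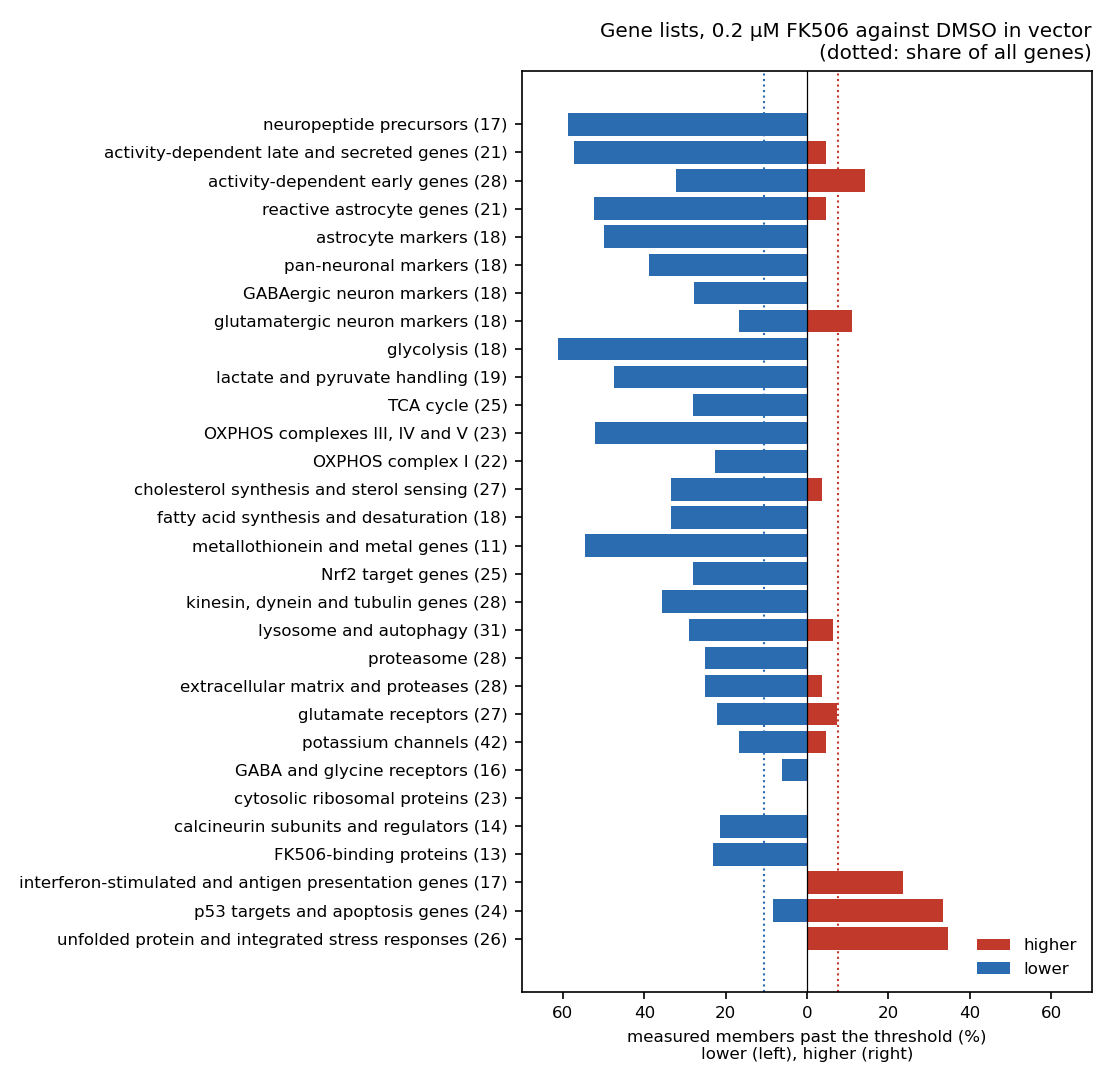
Share of measured members (number in brackets) of 30 of the 63 gene lists that were higher (red, right) or lower (blue, left) at 0.2 µM FK506 against DMSO in vector. Dotted lines mark the shares over all genes, 7.7% and 10.6%. Glycolysis (11 of 18), neuropeptides (10 of 17) and late activity genes (12 of 21) reach furthest to the left, and stress response (9 of 26) and p53 (8 of 24) lists furthest to the right.

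Among genes of glycolysis 11 of 18 were lower and 0 higher, with a median of -0.26. Pgk1 fell from 11637, 12228 and 11614 to 9643, 8291 and 8443 (-0.43 ± 0.06, adjusted p 0.00074), Eno1 from 28216, 29254 and 30274 to 22261, 20022 and 19322 (-0.51 ± 0.09) and Hk1, the hexokinase that starts the pathway, from 11293, 11059 and 11199.7 to 8949, 9463 and 9127 (-0.29 ± 0.04, adjusted p 0.00083). Gapdh, often used as a reference gene, fell from 81082, 85980.4 and 87962 to 66831, 56239 and 55669.7 (-0.52 ± 0.11). After quantile normalization 7 of the 18 were lower. Summed, the glycolysis genes held 81.2%, 72.8% and 71.1% of the DMSO mean in the 0.2 µM libraries. A list of housekeeping genes, with 4 of 13 lower and 1 higher, held 85.3%, 74.8% and 75.7% in the same libraries. Gapdh is a member of both lists and had the lowest change in each (-0.52), so the sums are not independent. Whether the fall is particular to glycolysis among abundant transcripts was not tested. Genes of lactate and pyruvate handling had 9 of 19 lower [3 to 9], among them Ldha (-0.59 ± 0.09), Pdk3 (-0.41 ± 0.08) and the pyruvate carboxylase Pc (-0.30 ± 0.06). In the TCA cycle list 7 of 25 were lower [3 to 11], with Me1, malic enzyme, at -0.39 ± 0.06 and Idh3a at -0.23 ± 0.04; apart from Slc13a5, the members that passed changed by under 0.5 on the log2 scale.

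Sterol genes fell in part: 9 of 27 genes of cholesterol synthesis and sterol sensing were lower and 1 higher, with a median of -0.20. Msmo1, which removes methyl groups from lanosterol, fell from 2603, 2637 and 2658 to 1587, 1442 and 1405 (-0.83 ± 0.06, adjusted p 1.8e-05). Mvd, mevalonate decarboxylase, fell from 1343, 1385 and 1482 to 848, 744 and 775 (-0.83 ± 0.12). Srebf1, a sterol-regulated transcription factor, fell by 0.54, Fdft1, squalene synthase, by 0.48 and Nsdhl by 0.50 on the log2 scale. In the fatty acid list 6 of 18 were lower [2 to 5], with Scd1, stearoyl-CoA desaturase, going from 317, 335 and 316 to 189, 179 and 159 (-0.88 ± 0.09, adjusted p 0.00012). Of the one-carbon and serine genes 5 of 13 were lower [2 to 6] and 1 higher: Cbs, which makes cystathionine, fell by 1.18, Slc7a11, the cystine carrier, by 0.97 and Phgdh by 0.42, while Shmt1 rose by 0.65. Nrf2 targets had 7 of 25 lower [4 to 9] and 0 higher, including Hmox1, heme oxygenase 1, at 2198, 2024 and 2560.4 in DMSO and 1483, 1238 and 1528 at 0.2 µM (-0.67 ± 0.11), and Fth1, ferritin heavy chain (-0.74 ± 0.17). Fth1 had the highest value in every library, so quantile normalization sets it equal in all of them and its change to 0. Without 1 of the libraries the call ended for Fth1 (adjusted p up to 0.052, without treated replicate 2) and Phgdh (adjusted p up to 0.078, without treated replicate 3).

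Some counts turned on single libraries. For complexes III to V of oxidative phosphorylation 12 of 23 genes were lower [2 to 23], and for complex I 5 of 22 [0 to 20]. The upper ends came without replicate 1 at 0.2 µM, and the lower ends came from leaving out another library. Summed over complex I, replicate 1 held 89.7% of the DMSO mean and replicates 2 and 3 held 69.1% and 69.4%, against 93.3% to 105% in DMSO. Cox7c read 4520.3, 4956 and 5013 in DMSO and 3862, 3006 and 3237 at 0.2 µM (-0.53 ± 0.13), and Ndufb5 3598, 3958 and 4083 in DMSO and 3238, 2342 and 2387 at 0.2 µM (-0.56 ± 0.16). The proteasome list had 7 of 28 lower [1 to 20], led by Psmc5 (-0.67 ± 0.14). Of 23 cytosolic ribosomal protein genes none passed by limma (2 at an unadjusted p under 0.05), at a median of -0.19. None had libraries without overlap, beside 38.7% of all genes. Axon guidance genes summed to 96.6% in replicate 1 and 114% and 111% in replicates 2 and 3, with 2 of 32 higher [0 to 5], under the 7.7% of all genes (Epha4 and Plxna2, 0.54 and 0.50); their median was 0.27, and -0.05 with the axis score as covariate. On the axis replicate 1 (-0.061) lay near the DMSO libraries, and replicates 2 and 3 (0.342 and 0.309) lay away from them. What sets replicate 1 apart from replicates 2 and 3 was not tested. Leaving out a single library ended the call for Cox7c (adjusted p up to 0.066, without treated replicate 2), Epha4 (adjusted p up to 0.085, without treated replicate 2), Ndufb5 (adjusted p up to 0.11, without treated replicate 2) and Plxna2 (adjusted p up to 0.062, without treated replicate 2).

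**Figure D4:**
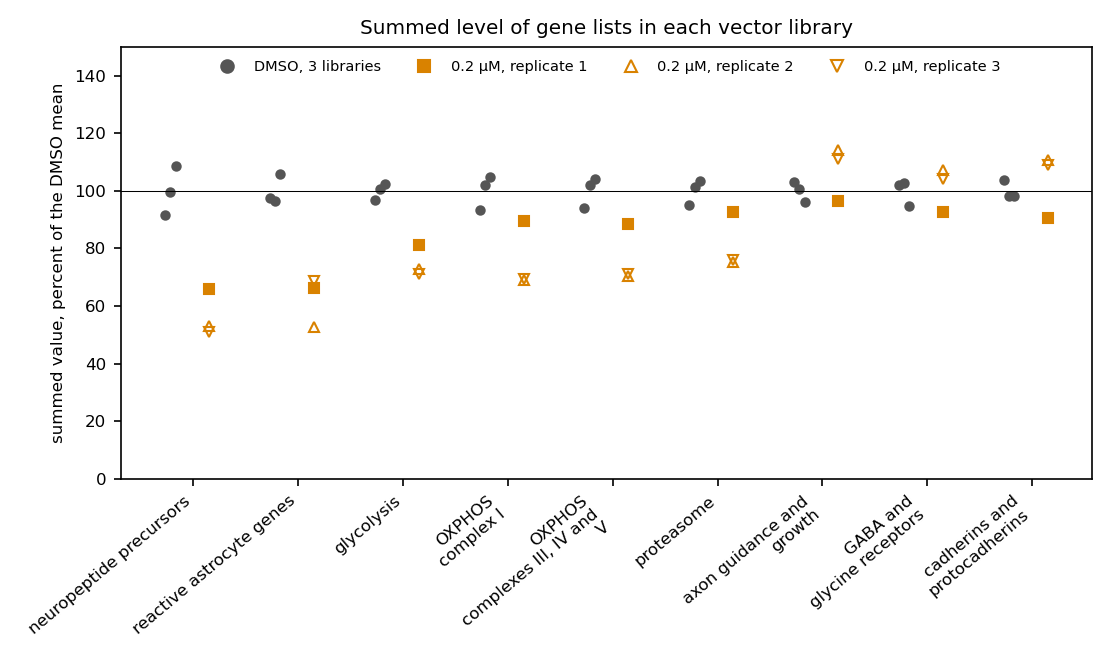
Summed normalized value of 9 gene lists in each vector library as a percentage of the mean of the DMSO libraries (grey circles), with the 3 libraries at 0.2 µM in orange and replicate 1 filled. For complex I replicate 1 lies at 89.7% and replicates 2 and 3 near 69%. All 3 lie below DMSO there and for complexes III to V, the proteasome, neuropeptides, reactive astrocyte genes and glycolysis.

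Neuronal markers passed in part. Of 18 pan-neuronal markers 7 were lower [4 to 8] and 0 higher, at a median of -0.19; 2 were lower after quantile normalization. Nefh, the heavy neurofilament, fell from 475, 484 and 516 to 254, 259 and 243 (-0.96 ± 0.10, adjusted p 0.00015), whereas Tubb3 fell by 0.30 and Nefm by 0.23 on the log2 scale. Glutamatergic markers had 3 of 18 lower [1 to 3] and 2 higher, beside 10.6% and 7.7% of all genes, at a median of 0.08. Their summed value was 84.6%, 93.9% and 89.7% of the DMSO mean. Among them Nrgn, neurogranin, fell by 0.54 on the log2 scale and Rorb, a layer marker, rose from 59.7, 25.5 and 39.6 to 69.4, 84.5 and 73.6 (0.93 ± 0.25). GABAergic neurons are not named in the labels, but 18 of 20 of their markers were in the table, with sums of 43274 to 46609.7 in DMSO and 27555 to 29642 at 0.2 µM. Of these markers 5 were lower: Gad1, which makes GABA, fell from 5899, 5994 and 5458 to 3397, 3690.3 and 3668 (-0.69 ± 0.08, adjusted p 0.00031), Slc32a1, the vesicular GABA transporter, from 4211, 4301 and 4493 to 3098, 3262 and 3103 (-0.46 ± 0.05), and Calb1, calbindin, from 4002, 4192 and 3943 to 2891, 3008 and 2779.6 (-0.48 ± 0.07). Sst and Vip, counted with the neuropeptides above, are also in this list, and Sst is its most abundant member. With 1 library left out the call was lost for Nrgn (adjusted p up to 0.16, without treated replicate 3) and Rorb (adjusted p up to 0.097, without DMSO replicate 2).

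Potassium channels had 7 of 42 lower and 2 higher, beside 10.6% and 7.7% of all genes. Kcnc1 and Kcnc2, which carry the fast currents of inhibitory neurons, fell by 0.55 and 0.50 on the log2 scale. Kcnn3, a calcium-activated channel, rose from 322, 307 and 342 to 562, 548 and 552 (0.77 ± 0.08, adjusted p 9.5e-05). Glutamate receptors and their partners had 6 of 27 lower [3 to 5] and 2 higher: Cacng8, an AMPA receptor partner, fell from 656, 737 and 699 to 435, 461 and 426 (-0.66 ± 0.11), Grik1 fell by 0.50, and Grin2b and Grin2d rose by 0.61 and 0.55. Grin1, the shared NMDA receptor subunit, read 12821, 13086 and 13313 in DMSO and 12507, 12909.7 and 13327 at 0.2 µM and did not pass (-0.02 ± 0.05). GABA receptors had 1 of 16 lower, Gabra5 (-0.29 ± 0.06), a share near the background. The call did not hold without 1 library for Grin2d (adjusted p up to 0.16, without treated replicate 2).

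Presynaptic genes (5 of 30 lower, 1 higher) and postsynaptic scaffolds (4 of 26 lower [2 to 3]) stood near or a little above the background of 10.6% lower. Cplx1, complexin 1, fell by 0.31, Vamp1 by 0.38 and Dlgap3 by 0.46 on the log2 scale, and Syn3 rose by 0.78. Of 20 genes for calcineurin substrates in endocytosis and their partners 1 passed, Dnm1, dynamin 1, at 22073, 22777 and 22017 in DMSO and 19071, 19713 and 18949 at 0.2 µM (-0.21 ± 0.05). Of 28 kinesin, dynein and tubulin genes 10 were lower [6 to 12], 7 of them tubulins, with Tubb4a at 9651, 9740.1 and 9607 in DMSO and 6527, 6789.98 and 6293 at 0.2 µM (-0.56 ± 0.05, adjusted p 3.6e-05). Among genes linked to Parkinson's disease 5 of 16 were lower and 1 higher. Gpnmb, a glycoprotein of lysosomes, fell from 689, 679 and 644 to 293, 328 and 297 (-1.13 ± 0.11, adjusted p 9.5e-05), and Pink1, a mitochondrial kinase, by 0.33 on the log2 scale. Lysosome and autophagy genes had 9 of 31 lower [4 to 10] and 2 higher, with Becn1 (-0.37 ± 0.05) and Lamp1 (-0.41 ± 0.07) among the lower. Without 1 of the libraries the call ended for Dnm1 (adjusted p up to 0.06, without treated replicate 3).

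Markers of other cell types that the labels do not name were measured to differing extents. Of 18 microglia and macrophage markers 3 had a label in the table: Mmp12 rose, Laptm5 fell from 17.4, 11.2 and 20.4 to 4.96, 5.75 and 6.93 (-1.30 ± 0.29), and Cd68 read 171, 151 and 191 in DMSO and 259, 163 and 236 at 0.2 µM (0.34 ± 0.15, not past the threshold). Endothelial and pericyte markers had 4 of 15 in the table and 0 past the threshold by limma (1 at an unadjusted p under 0.05). The 3 microglia labels summed to 172 to 219 in DMSO and 195 to 299.6 at 0.2 µM. Of 17 oligodendrocyte lineage markers 11 were measured, with sums of 4592 to 4659.9 in DMSO and 4031 to 4353 at 0.2 µM; Olig2 and Myrf rose by 0.48 and 0.41 and Olig1 fell from 2498, 2573 and 2588 to 1992, 1824 and 1689.8 (-0.48 ± 0.07). Radial glia and progenitor markers, 11 of 14 measured, summed to 16720.1 to 16822 in DMSO and 13893 to 15149 at 0.2 µM. Among them 4 were lower [2 to 3], beside 10.6% of all genes. Summed fibroblast and meningeal markers, 11 of 18 measured, held 67.8% to 72.4% of the DMSO mean at 0.2 µM. Igfbp2 dominated that sum (4602, 4535 and 5439 in DMSO and 2845, 2228 and 2538 at 0.2 µM). This insulin-like growth factor binder is not confined to fibroblasts. In that list 2 were lower and 1 higher, beside 10.6% and 7.7% of all genes. The part of other cell types in the results above was not tested. Leaving out a single library ended the call for Myrf (adjusted p up to 0.067, without treated replicate 3).

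At 2.0 µM 47.2% of genes passed against the same DMSO libraries, and 33.7% differed between the doses; the comparisons with DMSO share their control libraries, so only the contrast of 2.0 with 0.2 µM tests the dose. Several falls were deeper at the higher dose. Nptx2 read 202, 243 and 153 at 2.0 µM, a difference from 0.2 µM of -1.49 on the log2 scale (adjusted p 8.9e-05), and Acan 29.2, 23.9 and 23.3 (difference -1.11, adjusted p 0.0016). Crhbp, Bdnf and Gfap also lay lower at 2.0 µM than at 0.2 µM, with differences of -1.58, -0.66 and -0.63. Other falls showed no such step: the difference between doses was -0.08 for Vgf (adjusted p 0.55), -0.14 for Vim (adjusted p 0.38) and 0.14 for Slc13a5 (adjusted p 0.83), which does not show that the doses act alike.

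Several rises were larger at 2.0 µM. Cdkn1a read 9105, 11118 and 8096 at 2.0 µM, 2339% of the DMSO mean, a difference from 0.2 µM of 3.30 (adjusted p 2.0e-08). Dio2 read 283, 334 and 336 (difference 2.84), and Gtse1, a p53 regulator that read 44.3, 31.6 and 48.9 in DMSO and 83.3, 91.2 and 101 at 0.2 µM, read 535, 600.1 and 456 (difference 2.51). Ptprh and Acer2 differed by 1.82 and 1.73. Jun, Btg2, Atf3 and Hspa5 were also higher at 2.0 than at 0.2 µM, by 0.61, 0.93, 1.70 and 0.79. Each of these lay beyond its 0.2 µM level at an adjusted p under 0.05. With 1 library left out the call was lost for Acer2 (adjusted p up to 0.074, without DMSO replicate 1).

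A group of genes was lower than DMSO at 0.2 µM and not at 2.0 µM; they were picked among the named genes after their values were seen. Msmo1 read 3084, 3282 and 3062 at 2.0 µM, above DMSO by 0.25 ± 0.06, a difference between doses of 1.09 (adjusted p 7.4e-07). Hmox1 read 4629, 5351 and 4136 (difference 1.73, adjusted p 1.4e-06), and Fosl2, an AP-1 subunit, read 75.0, 59.1 and 62.7 in DMSO, 29.8, 43.2 and 46.7 at 0.2 µM and 147, 143 and 167 at 2.0 µM (difference 1.93, adjusted p 1.2e-05). In these 3 genes the 0.2 µM libraries lay below all DMSO libraries and the 2.0 µM libraries above them. Hspb1, Icam1, Nes, Mvd and Tnfaip2 had differences between doses of 1.35, 1.05, 1.02, 0.72 and 0.97, all past the threshold. Olig2 did the reverse, with 587, 616 and 542 at 0.2 µM, 431, 419 and 401 in DMSO and 335, 299.95 and 326 at 2.0 µM (difference -0.86, adjusted p 1.9e-05). Usp18, an interferon-induced protease, read 22.1, 29.6 and 26.7 in DMSO, 54.6, 39.4 and 41.8 at 0.2 µM and 27.3, 24.8 and 19.2 at 2.0 µM (difference -0.90, adjusted p 0.012). The call did not hold without 1 library for Fosl2 (adjusted p up to 0.06, without DMSO replicate 1), Icam1 (adjusted p up to 0.17, without treated replicate 2) and Nes (adjusted p up to 0.15, without treated replicate 2).

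**Figure D5:**
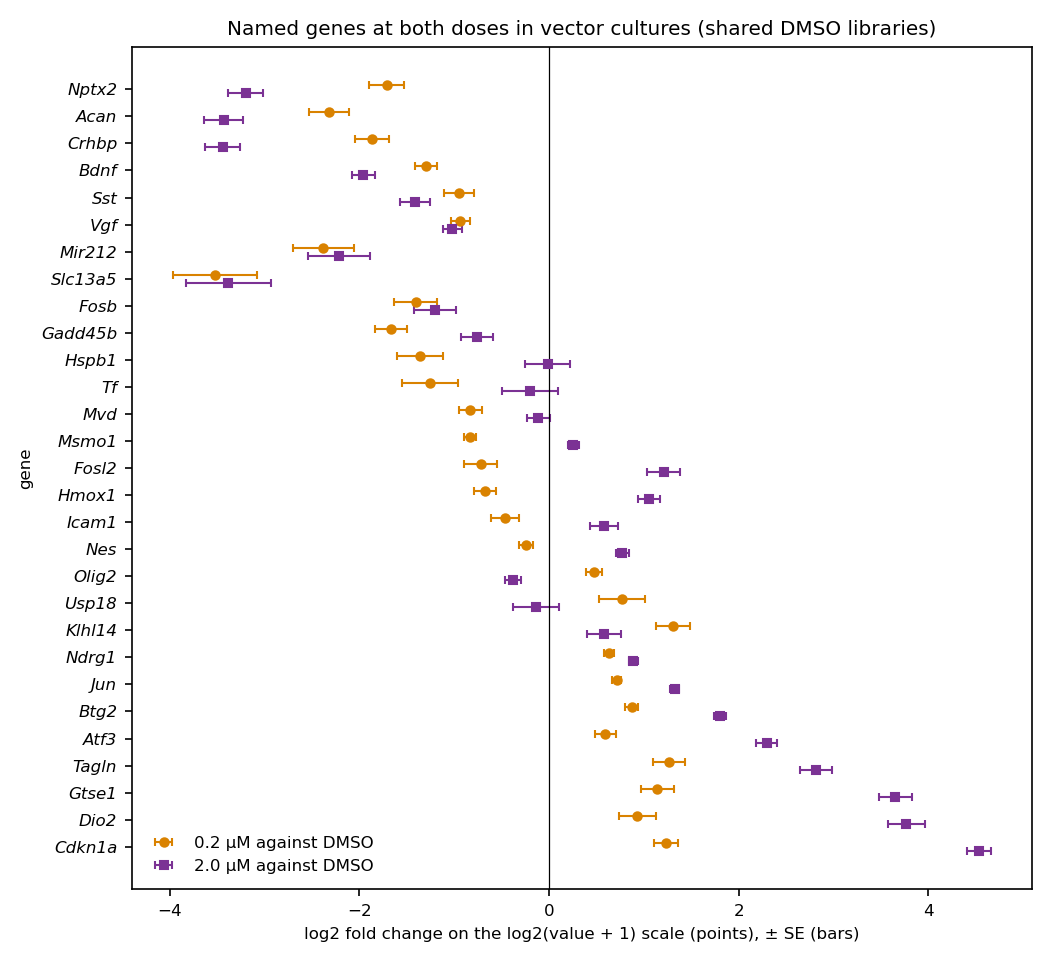
Log2 fold change against DMSO (points, ± SE) of named genes at 0.2 µM (orange circles) and 2.0 µM FK506 (purple squares) in vector cultures; both use the same DMSO libraries. Cdkn1a runs from 1.23 to 4.53, while Msmo1, Fosl2 and Hmox1 lie below 0 at 0.2 µM and above 0 at 2.0 µM.

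The same dose was also given to cultures expressing α-synuclein A53T, with other control libraries. Of the 2 A53T libraries in DMSO, 1 carries a replicate number that no sample title has. It was assigned to its group by name only. There 68.0% of genes passed, and the effect differed from that in vector for 47.3% (5321 genes, or 2208 with the axis score as covariate). The 3 A53T libraries at 0.2 µM lay within sampling noise of each other (0.995 to 1.05 times), were counted as 1 sample, and scored 1.12 to 1.13 on the within-group axis. That sample has no spread of its own, so its p-values assume that it varies like the other groups. Gfap changed by -1.19 ± 0.12 in A53T and -1.13 ± 0.08 in vector (difference -0.06, adjusted p 0.76). Bdnf, Penk, Vgf, Btg2 and Msmo1 changed by -1.19, -2.12, -1.09, 0.77 and -0.77 in A53T, with differences of 0.11, -0.15, -0.15, -0.10 and 0.07 that did not pass. Under that assumption the threshold was passed by the differences for Vim (-1.05, adjusted p 0.0034), Acan (1.55, adjusted p 0.0083), Jun (-0.45, adjusted p 0.0036) and Cdkn1a (-0.85, adjusted p 0.012). The culture and the distance of those 3 libraries on the axis cannot be told apart.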

How the data were processed

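Polyadenylated RNA of rat cortical cultures was sequenced. The values are the authors' normalized gene counts, a signal that is never negative; FastQC, TopHat, HTSeq and the rn6 genome are named per the submitters' processing notes, while versions and the normalization method are not given in the sources used here. Whole reads could not be recovered from the deposited signal, so no count test was run.

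Each value was taken as log2(value + 1) and fitted with limma 3.58.1 (R 4.3.3) with a mean-variance trend; p-values were adjusted over all 11247 genes by the Benjamini-Hochberg method and called at 0.05. A minimum mean of 1 removed 0 genes. The fit held all groups: 15 samples with 9 residual degrees of freedom, the 3 A53T libraries at 0.2 µM being averaged to 1 because they agree within sampling noise. The model was also run on simulated data with independent noise for each gene and library. That noise lacks the shared within-group axis of these data, so its effect on the calls was not tested there.

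Members and gene lists were chosen with earlier results of these data known. Named genes were all calcineurin, NFAT and FK506-binding genes, the 12 largest rises and falls (mean of at least 20, no overlap), up to 6 members of each list by smallest p and its most abundant member, the 6 most abundant that passed in each direction, the 6 largest differences between doses and between cultures, the 4 smallest p-values in each direction, and genes with a whole cyclic AMP response element. Sequences are from RefSeq (GRCr8); 11087 labels matched a symbol or synonym, 10458 of them a current symbol. Alternatives were other pseudocounts, filters, scalings, sample sets, a replicate block, a covariate and leaving out each library. Results for some genes are not reported here.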

Additional observations from a re-analysis of the deposited data

Results flagged for a closer look

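Over all genes, the effect of 0.2 µM FK506 differed between A53T and vector cultures for 5321 of 11247 genes by the limma test of the difference itself. With the axis score as covariate the count was 2208. The A53T cultures at 0.2 µM are 1 sample (3 libraries within sampling noise of each other) with no spread of its own, so the test assumes that it varies like the other groups. Among genes past the threshold in vector, 6 with the largest such difference were looked at again. Kcnq3, a potassium channel subunit, changed by 0.88 ± 0.21 in vector and 5.31 ± 0.32 in A53T, a difference of 4.42 on the log2 scale. Slc4a8, a bicarbonate transporter, differed by 4.31, Srgap3, a regulator of Rac, by 2.96 and Ston2, an endocytic adaptor, by 3.05. Tanc2, a postsynaptic scaffold, differed by 3.19 and Xrn1, an RNA exonuclease, by 3.09. In vector, the call at 0.2 µM against DMSO ended when 1 library was left out for Kcnq3, Slc4a8, Srgap3, Ston2 and Xrn1 (adjusted p up to 0.07, 0.14, 0.11, 0.12 and 0.12 by limma). All 6 were higher at 0.2 µM than in DMSO in both cultures. That sample scored 1.12 to 1.13 on the within-group axis, against -0.061 to 0.342 in vector at 0.2 µM.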

How the results depend on the processing

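Of the 175 genes named here, 158 passed the threshold, and 113 of these passed under all 18 alternatives; 45 lost the call under at least 1. Leaving out a library ended 4 to 37 calls, the replicate block 21 and quantile normalization 13. The direction turned for Ppp3ca, which did not pass, at -0.20 with the axis score as covariate, and Fth1, the highest gene in every library, was set equal by quantile normalization (3.6e-15). The 2056 genes past the threshold at 0.2 µM in vector became 5896 with 3 libraries that stood apart left out. These were vector 0.2 µM replicate 1, vector 2.0 µM replicate 2 and A53T 2.0 µM replicate 1. With the axis score as covariate the count was 3735. The axis and those 3 libraries were picked from the within-group spread of these same data. Both settings take that spread out of the estimate, so their p-values can be too small. The larger counts do not show that 2056 is too low. Leaving out 1 library gave 980 to 2918: without DMSO replicates 2 and 3 the count was 1044 and 1103, and without treated replicates 2 and 3 it was 1006 and 980. With a replicate block it was 1315. Same-numbered libraries of the 2 groups deviated with correlations of -0.48, -0.21 and -0.21, and differently numbered ones with -0.21 to 0.38. Because 1 axis held 54.3% of the within-group variance, these correlations cannot show whether the numbers pair the samples. With the axis covariate the count for 0.2 µM in A53T was 3328 in place of 7643, and for the difference between cultures 2208 in place of 5321. No paired value exists for A53T, whose libraries at 0.2 µM are 1 sample. The causes of the other changes were not tested. Without replicate 1 at 0.2 µM the counts of 20 of 63 lists moved by over 1.5 times. Raw depth is unknown, so no floor can be given for low genes.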
